A study of Mus musculus with 4 samples.

Results

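MED1 regions that were narrow, were made of a single deposited interval and lay at the end of a protein-coding gene numbered 1333 in RAW 264.7 cells, 5.91% of the 22565 regions on chromosomes 1 to 19 and X. The regions came from a list of intervals deposited for a ChIP-seq series of 4 libraries, and intervals that began exactly where the one before ended were joined into one region. Members were selected on 3 measures: the region held 1 interval, it was under 3776 bp wide, and its midpoint was no more than 1 kb from the start or the 3′ end of a RefSeq protein-coding gene. They made up 17.6% of the 7557 narrow single-interval regions and 18.5% of the 7207 regions with a midpoint at a gene end. The main class they stand beside at gene ends had 3 abutting intervals per region (5634 regions), and 240 regions at gene ends fell in neither class.

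RAW 264.7 is a mouse macrophage-like cell line. The cells were untreated (2 libraries) or had received LPS, the bacterial lipopolysaccharide that activates Toll-like receptor 4, for 2 h (2 libraries). The dose of LPS is unclear, being 10 ng/mL in the sample labels but 100 ng/mL in the protocol. Chromatin was crosslinked with DSG and formaldehyde and precipitated with a MED1 antibody. No interval names its library or carries a height, so depth is unknown, the condition in which a region was found is not known, and no value has an error over libraries. The percentages below carry Wilson 95% intervals, which cover only the counting of regions, genes or promoters within this list. No test was made between classes of regions, because neighbouring regions and genes are not independent.

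MED1 is a subunit of Mediator, the large complex that carries signals from transcription factors bound at enhancers and promoters to RNA polymerase II. Mediator is recruited both to active promoters and, at high density, to enhancers of cell identity genes. Mammalian promoters fall broadly into CpG-rich ones, which serve mostly housekeeping genes and often hold SP1, ETS or NRF1 sites, and CpG-poor ones, which serve many tissue-restricted and inducible genes. In macrophages the ETS factor PU.1 marks lineage genes, NF-kB acts at inflammatory genes, and the interferon-stimulated response element (ISRE) is bound by STAT and IRF factors.

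The promoters of 6 genes with a narrow region are shown because they span these promoter types, from a replication gene to cytokine and interferon genes. Each is the 250 bases before the transcript start used in the RefSeq promoter table for GRCm38.p6, 5′ to 3′ on the gene's own strand, and each lies inside its MED1 region. For Cd5 this transcript start lies inside the gene, whose outer end is at 10739026, so that part of the printed window overlaps the gene.
Mcm2 (chr6:88898781-88899030, minus strand, SP1 word in capitals): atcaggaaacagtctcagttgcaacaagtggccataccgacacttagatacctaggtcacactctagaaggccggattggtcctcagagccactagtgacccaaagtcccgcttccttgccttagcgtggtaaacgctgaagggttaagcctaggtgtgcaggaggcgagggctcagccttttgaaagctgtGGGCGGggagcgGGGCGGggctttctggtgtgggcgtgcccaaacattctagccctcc
Acss2 (chr2:155517793-155518042, plus strand, ETS word in capitals): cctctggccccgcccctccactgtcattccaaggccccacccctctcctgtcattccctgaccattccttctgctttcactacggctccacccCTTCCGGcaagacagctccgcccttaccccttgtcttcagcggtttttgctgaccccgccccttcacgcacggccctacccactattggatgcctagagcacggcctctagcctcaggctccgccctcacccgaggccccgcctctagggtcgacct
Cox6a1 (chr5:115348959-115349208, minus strand, NRF1 word in capitals): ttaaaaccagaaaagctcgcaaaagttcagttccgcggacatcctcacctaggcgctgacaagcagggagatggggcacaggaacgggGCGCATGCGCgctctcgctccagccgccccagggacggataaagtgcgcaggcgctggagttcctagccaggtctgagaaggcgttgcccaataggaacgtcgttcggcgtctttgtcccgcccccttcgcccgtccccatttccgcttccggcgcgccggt
Cd5 (chr19:10738975-10739224, minus strand, PU.1 word in capitals): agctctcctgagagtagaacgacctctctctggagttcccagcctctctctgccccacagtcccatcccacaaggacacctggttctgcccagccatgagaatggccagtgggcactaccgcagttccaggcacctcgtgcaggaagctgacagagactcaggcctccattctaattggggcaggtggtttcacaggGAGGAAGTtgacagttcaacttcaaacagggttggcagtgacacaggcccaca
Il6 (chr5:30012864-30013113, plus strand, NF-kB word in capitals): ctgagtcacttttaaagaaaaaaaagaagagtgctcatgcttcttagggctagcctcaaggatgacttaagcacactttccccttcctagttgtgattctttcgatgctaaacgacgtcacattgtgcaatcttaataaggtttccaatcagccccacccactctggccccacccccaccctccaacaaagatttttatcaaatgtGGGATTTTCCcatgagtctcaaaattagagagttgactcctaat
Trim30a (chr7:104465194-104465443, minus strand, ISRE word in capitals): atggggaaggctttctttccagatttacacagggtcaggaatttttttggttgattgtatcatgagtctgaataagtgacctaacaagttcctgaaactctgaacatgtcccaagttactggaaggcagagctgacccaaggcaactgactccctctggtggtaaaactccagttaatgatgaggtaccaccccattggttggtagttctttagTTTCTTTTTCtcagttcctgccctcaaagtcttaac

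The first 3 of these promoters were CpG-rich and the last 3 were CpG-poor. The ratio of observed to expected CpG, over the 300 bases from 250 before to 50 after the start, was 0.652 for Mcm2, a subunit of the replicative helicase, and 0.741 for Acss2, which makes acetyl-CoA from acetate. It was 1.08 for Cox6a1, a cytochrome c oxidase subunit. It was 0.126 for Cd5, a lymphocyte surface receptor, 0.214 for the cytokine gene Il6 and 0 for Trim30a, an interferon-induced regulator of Toll-like receptor signalling. The MED1 region at Mcm2 was 1368 bp wide and its midpoint fell 0.5 bp from the gene start. The regions at Acss2, Cox6a1 and Cd5 were 2080, 2251 and 850 bp wide. Those at Il6 and Trim30a were 2767 and 2676 bp wide, and their midpoints lay 324 and 525.5 bp downstream of the start. The NF-kB match in Il6 began 44 bases before the start and the ISRE match in Trim30a 36 bases before it.

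Members covered 1.84 Mb in all and had a median width of 1235 bp (quartiles 851 and 1766 bp, range 177 to 3729 bp). The narrowest lay at Synj2, a phosphoinositide phosphatase (177 bp), Agpat3 (262 bp), Phf20l1 (273 bp), the inflammasome sensor Nlrp1a (279 bp) and the imprinted gene Peg12 (295 bp). The widest lay at Slc29a1, a nucleoside transporter (3613 bp), the mitotic kinase gene Wee1 (3632 bp), Rel, an NF-kB subunit (3696 bp), Ndrg2 (3714 bp) and Josd1 (3729 bp). Just over the width limit were single-interval regions at Snx14 (3776 bp), Trim30c (3783 bp), the Fc receptor gene Fcgr4 (3830 bp), Col4a5 (3869 bp) and Prrc1 (3886 bp). The limit is the 95th percentile of all 7956 single-interval regions, and 40 single-interval regions at gene ends were at or over it. Members just inside the 1 kb distance lay at Clec2d (998.5 bp), Trim13 and Sfxn3 (999 bp each), and regions just outside lay near Ywhah (1000.5 bp), Slc28a3 (1002 bp) and the 3′ end of Parp1 (1003 bp). Three-interval regions at gene ends had a median width of 2089 bp. Their middle interval alone had a median of 1600 bp, with flanking intervals of 155 and 153 bp.

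Members lay at the starts of genes more often than at their 3′ ends. Gene strand was known for 1091 of them, and 952 of these (87.3%, 85.1 to 89.1) had a gene start within 1 kb of the midpoint. The remaining 139 were at a known 3′ end and no known start, though an end of a gene with no strand may also lie within 1 kb of some. A further 242 members lay only at genes with no strand in the tables used. Among three-interval regions, 4487 of 4673 (96.0%, 95.4 to 96.5) were at a start, and this interval does not overlap that of the members. The midpoint of a member at a start lay a median of 96.8 bp downstream of it (quartiles -168 and 363 bp) and was downstream in 60.8% (57.7 to 63.9). Three-interval regions had a median of 126 bp downstream, with 65.4% (64.0 to 66.8) on that side. Members covered the gene start itself in 77.1% (74.3 to 79.7), compared with 96.2% (95.6 to 96.7) of the wider three-interval regions.

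**Figure D1:**
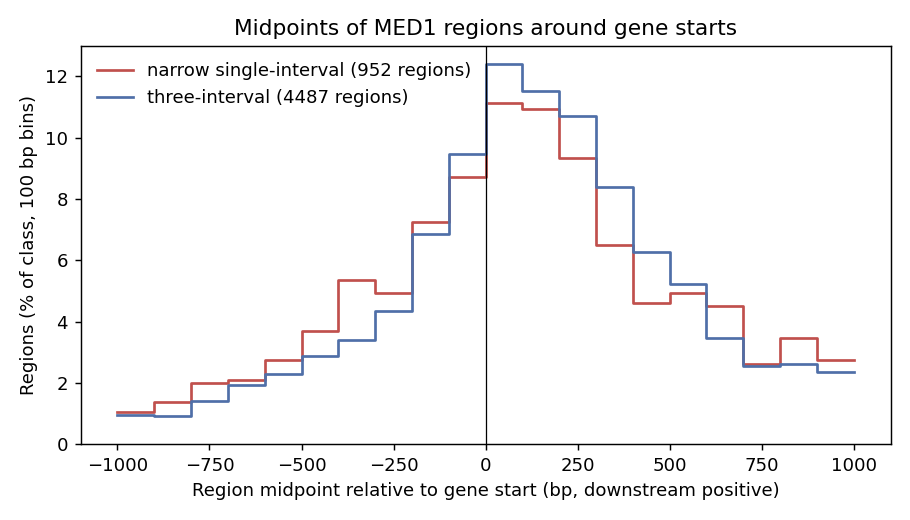
Midpoints of MED1 regions relative to the gene start (x axis, bp, downstream positive), as the percentage of each class in bins of 100 bp (y axis), for 952 narrow single-interval and 4487 three-interval regions. Both classes peak just downstream of the start, with medians of 96.8 and 126 bp.

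The side of the start varied with width. Members 500 to under 1000 bp wide had their midpoint upstream of the start in 48.2% of cases (42.3 to 54.1), those 1500 to under 2000 bp wide in 30.1% (23.8 to 37.3). Three-interval regions of the same widths lay upstream in 55.0% (48.1 to 61.7) and 34.0% (31.2 to 36.9). Members and three-interval regions of like width therefore had overlapping intervals on this measure. Of the 59 members under 500 bp wide at a start, 45.8% (33.7 to 58.3) had the midpoint upstream. Some histone acetylation genes serve as examples of narrow upstream members. The region at Crebbp, which encodes the acetyltransferase CBP, was 382 bp wide and its midpoint lay 284.5 bp upstream of the start. At Hdac6, a mainly cytoplasmic deacetylase, a region of 453 bp lay 315 bp upstream, and at Sirt1, an NAD-dependent deacetylase, a region of 429 bp lay 428 bp upstream. At Med13l, a Mediator kinase module subunit, a region of 591 bp lay 762 bp upstream.

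Few members had gene starts on both strands within 1 kb of the midpoint. Such pairs are called divergent here, whether or not the 2 genes overlap. They accounted for 67 members (5.03%, 3.98 to 6.33), compared with 615 three-interval regions (10.9%, 10.1 to 11.8). Regions at genes without a strand stay in these totals but could not be counted as pairs. In members the share stayed between 4.24% and 5.37% in the 4 width classes from 500 bp up. In three-interval regions it was 3.11% at 500 to under 1000 bp, 6.09% at 1000 to under 1500 bp, 11.6% at 1500 to under 2000 bp and 14.1% above that. At 500 to under 1000 bp, the share in members was 5.12%, so the lower share in members was seen only from 1000 bp up. One region served 1 gene end in 1187 members, 2 genes in 145 and 3 or more in 1.

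Promoters at members were CpG-rich in most cases, though less uniformly than at three-interval regions. Of 997 promoter windows whose gene started within 1 kb of a member's midpoint, 73.8% (71.0 to 76.5) had an observed to expected CpG ratio of 0.6 or more. The share was 82.4% (81.3 to 83.4) of 5122 windows at three-interval regions, 49.0% of all 17273 windows and 31.0% of 11006 windows with no region at the start. The median GC content was 62.7% at members (quartiles 55.7 and 69.7), 60.7% at three-interval regions and 56.3% over all windows. The intervals of these GC medians (61.7 to 63.3 at members, 60.7 to 61.0 at three-interval regions) did not overlap, but they did for windows lying wholly inside their region (61.3%, 60.3 to 62.3, and 60.7%, 60.3 to 61.0). The median CpG ratio was 0.770 at members and 0.812 at three-interval regions. The lower quartile of this ratio was 0.592 at members and 0.667 at three-interval regions.

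ETS words were less frequent at members than at three-interval regions, whereas SP1 words were not. Each of 14 fixed words was searched on both strands of each window. SP1 (GGGCGG) was found in 70.7% of windows at members (67.8 to 73.5), 66.1% at three-interval regions (64.8 to 67.4) and 46.9% of all windows. ETS (CCGGAAG) was found in 15.5% (13.4 to 17.9), 25.1% (23.9 to 26.3) and 12.1%. NRF1 (GCGCATGC) gave 4.71% (3.56 to 6.21), 7.40% (6.71 to 8.15) and 3.64%, and YY1 gave 1.20%, 2.44% and 0.978%. A match describes these letters and does not show that a factor was bound.

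The ETS share was also lower at members within classes of width and of CpG ratio, though not always beyond the intervals. At widths of 1500 to under 2000 bp, ETS was in 12.8% (8.78 to 18.4) of windows at members and 27.6% (25.1 to 30.1) at three-interval regions. At 500 to under 1000 bp the shares were 15.3% (11.6 to 19.95) and 22.0% (16.9 to 28.1), and at 1000 to under 1500 bp 19.02% (15.0 to 23.8) and 26.1% (23.2 to 29.1), with overlapping intervals in both. In windows with a CpG ratio of 0.6 or more, ETS was in 17.3% (14.7 to 20.2) of 736 windows at members, 27.5% (26.2 to 28.9) of 4218 at three-interval regions and 19.9% of 8459 windows of this kind in all. In the same CpG-rich windows SP1 was in 82.1% (79.1 to 84.7), 71.7% (70.3 to 73.1) and 74.2%. In CpG-poor windows ETS was in 10.7% (7.53 to 15.1) at members and 13.7% (11.6 to 16.1) at three-interval regions, and these intervals overlap. With divergent pairs left out, ETS was in 14.5% and 23.3%.

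The other words are given in the same order, at members, at three-interval regions and over all windows. NFY (CCAAT) was in 38.7%, 41.0% and 39.6%, and the E-box (CACGTG) in 10.8%, 11.5% and 8.01%. CRE (TGACGTCA) was in 2.91% (2.03 to 4.15), 4.31% (3.79 to 4.91) and 2.36%, and its variant (TGACGCAA) in 1.00%, 1.25% and 0.672%. ZNF143 was in 4.51% (3.39 to 5.99), 5.97% (5.36 to 6.66) and 2.98%. The words for the TATA box and AP-1 were less frequent in both classes of MED1 promoters than over all windows. The TATA box (TATAAA) was in 5.62% (4.35 to 7.22) at members, 5.94% at three-interval regions and 13.4% of all windows, and AP-1 (TGANTCA) in 3.81%, 4.35% and 7.09%. In windows with a CpG ratio of 0.6 or more, TATA was in 2.99% (1.98 to 4.48), 5.31% and 5.83%, and AP-1 in 2.58% (1.66 to 4.00), 3.44% and 3.43%. In CpG-poor windows TATA was in 13.0% (9.47 to 17.7), 8.85% and 20.7%, and AP-1 in 7.28% (4.71 to 11.1), 8.63% and 10.6%. Over windows of any CpG ratio, PU.1 (GAGGAAGT) was in 2.71%, 3.07% and 3.17%, NF-kB in 0.201%, 0.351% and 0.394%, and ISRE in 2.51%, 3.01% and 3.43%. The PU.1 and ETS words share the letters GGAAG, but no word contains another.

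The 261 windows with a CpG ratio under 0.6 included immune genes and differed in the words they held. ISRE was in 6.51% (4.11 to 10.2) of these, against 1.09% (0.552 to 2.13) of the 736 CpG-rich windows at members. PU.1 was in 4.98% against 1.90%, and TATA in 13.0% (9.47 to 17.7) against 2.99% (1.98 to 4.48). CpG-poor windows of all genes gave 4.52% for ISRE, 4.02% for PU.1 and 20.7% for TATA, so the first 2 shares at members were near that background. SP1 was in 38.7% (33.0 to 44.7) of CpG-poor windows at members, compared with 20.7% of all CpG-poor windows, and ETS in 10.7% (7.53 to 15.1) compared with 4.50%.

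Chemokine genes, named here after their values were seen, were among the CpG-poor promoters at members. At Ccl6 a region of 1507 bp had its midpoint 23 bp upstream of the start, and at Ccl22 a region of 1102 bp lay 48.5 bp upstream. At Ccl12, a monocyte chemoattractant, the region was 1833 bp wide and lay 472 bp upstream. Ccr1, a receptor for such chemokines, had a region of 827 bp 269 bp inside the gene. The death receptor gene Fas and the death ligand gene Tnfsf10 had regions of 3251 and 962 bp. Complement component C3 had a region of 843 bp centred 90 bp upstream, and the protease inhibitor gene Slpi one of 1603 bp centred 356 bp upstream. The scavenger receptor gene Olr1, the cyclooxygenase gene Ptgs1, the STAT5-induced feedback gene Cish and Gpnmb also belonged here, with CpG ratios of 0.449, 0.313, 0.521 and 0.592.

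A protein-coding gene had a narrow single-interval region at an end in 1435 of 21627 cases (6.64%). For three-interval regions the count was 6532 (30.2%), and for any region 8053 (37.2%). A narrow region was thus found at 17.8% of the genes with any region at an end. Of the 1435 genes, 151 (10.5%) also had a three-interval region at an end and 45 had 2 narrow regions. Genes that start at members had a median length of 21.5 kb, and those at three-interval regions 21.3 kb, compared with 17.3 kb for all genes. Because position chose the members, the counts by gene list below describe which genes they serve and are set beside the 6.64% for all genes.

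Housekeeping lists had many regions at gene ends, most of them of 3 intervals. Narrow regions lay at 3 of 88 cytosolic ribosomal protein genes, 4 of 78 mitochondrial ribosomal protein genes and 3 of 96 respiratory chain and ATP synthase genes. They lay at 1 of 51 proteasome genes, 1 of 43 splicing factor genes and 0 of 37 tRNA synthetase genes. Three-interval regions were found at 51, 59, 75, 43, 40 and 28 genes of these 6 lists in the same order. The intervals of the 6 narrow shares all include the 6.64% of all genes, the highest bounds lying between 8.79% and 12.46%. When only genes with any region at an end were counted, the narrow shares of these 6 lists were all below the 17.8% of all genes. They ranged from 0% for tRNA synthetase genes to 6.35% for mitochondrial ribosomal protein genes, and no intervals are given for them. Among the cytosolic ribosomal members, the regions at Rpl19 and Rpl23 were at the 3′ end, with midpoints 735 bp past it and 418.5 bp before it. The 1 splicing member, Prpf8, the scaffold protein of the spliceosome, shares its region with the start of Rilp: the midpoint lay 532.5 bp past the 3′ end of Prpf8 and 114.5 bp upstream of the start of Rilp. Cox6a1, Ndufab1 and Ndufb11 were the respiratory members, Psmd10 the proteasome member, and Mrpl19, Mrpl28, Mrpl34 and Mrps26 the mitochondrial ribosomal members.

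Among the lists with shares above 6.64% were those of chromatin, repair and metabolic genes, which also had more regions of every kind at their ends than all genes. Among genes with any region at an end, narrow regions were at 17.8% of all genes, at 38.9% of histone acetylation genes, 17.9% of repair and replication genes, 10.3% of Mediator genes and 22.2% of ketoacid dehydrogenase and acetyl-CoA genes. Of 27 histone acetylation genes, 7 had a narrow region (25.9%, 13.2 to 44.7) and 12 a three-interval region. They were Crebbp, Hdac6, Hdac8 and Sirt1, given by the naming rule, and Kat5, Kat6a and Sirt6, named because the count is small. The region at Hdac8, a class I deacetylase, was 657 bp wide and lay 164 bp inside the gene. Those at the acetyltransferase gene Kat5 and the deacetylase gene Sirt6 were at the 3′ end, with midpoints 484.5 and 823 bp past it, and the former is shared with the 3′ end of Rnaseh2c. Of 46 DNA repair and replication genes, 7 had one (15.2%, 7.57 to 28.2), among them the helicase genes Mcm2 and Mcm3, the DNA polymerase gene Pold1 and Parp1, which senses DNA breaks. Of 33 Mediator genes, 3 had one (9.09%, 3.14 to 23.6), namely Med30, Med19 and Med13l. The lower bounds for Mediator genes lay under 6.64%, and those for the other 2 lists above it. When only the 751 members no wider than 1346 bp were kept, the shares were 18.5% for histone acetylation, 2.17% for repair and replication and 3.03% for Mediator genes. The share over all genes at this width limit is not given, and 6.64% belongs to the full set of members.

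Of 21 genes of 2-ketoacid dehydrogenases and acetyl-CoA supply, 4 had a narrow region (lower bound of the share 7.67%) and 14 a three-interval region. The dehydrogenases turn pyruvate, ketoglutarate and branched-chain ketoacids into acyl-CoA. The list also holds their regulators, such as Pdk1 and Bckdk, and genes of acetyl-CoA supply, such as Acss2. At Pdk1, a kinase that inhibits pyruvate dehydrogenase, the region (chromosome 2, 71872558 to 71874408) was 1851 bp wide and its midpoint lay 268 bp inside the gene. At Bckdhb, a subunit of the branched-chain dehydrogenase, a region of 836 bp lay 39.5 bp upstream of the start. At Bckdk, the kinase of the same complex, a region of 1635 bp lay 597 bp inside the gene. The region at Acss2 (chromosome 2, 155516981 to 155519060) was centred 22.5 bp upstream. Among members no wider than 1346 bp, for which no share over all genes is given, only Bckdhb remained of these genes (4.76%).

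Inflammatory response genes gave 6 members in all from the 2 lists that hold them. Of 34 secondary and interferon response genes, 4 had a narrow region (11.8%, 4.67 to 26.6) and 11 a three-interval region, and of 48 primary LPS response genes 2 had one (4.17%, 1.15 to 14.0) and 11 a three-interval region. Both intervals include 6.64%, and all 6 regions were wider than 1346 bp. With no upper limit on width, single-interval regions were at 23.5% of the secondary and interferon genes, with a lower bound of 12.4%, and at 8.33% (3.29 to 19.6) of the primary genes. Without the limit 1373 regions count in place of 1333, and the share over all genes is not given. The region at Nos2, the inducible nitric oxide synthase (chromosome 11, 78919710 to 78921807), was 2098 bp wide with its midpoint 28.5 bp from the gene end. At Il6 it spanned 30012055 to 30014821 on chromosome 5. At Gbp3, a guanylate-binding protein, it was 3176 bp wide, 570.5 bp inside the gene and 0.307 kb from the next region. The 2 primary response members were Ccl2, where a region of 2979 bp spanned the gene (chromosome 11, 82034527 to 82037505), and Rel, where a region of 3696 bp overlapped the 3′ end and had its midpoint 993.5 bp past it. No macrophage lineage gene of 36 had a narrow region (0 to 9.64%, an interval that includes 6.64%), while 13 had a three-interval region. A region of any kind was at an end of 15 of the 36 (41.7%), near the 37.2% of all genes. As a check of the cell line, 10 macrophage markers, all of them in this list, were looked at. Of these, 6 had a region midpoint at an end (37.2% of all genes). All 10 had a region overlapping the 1 kb window of an end (46.1% of all genes). None had a narrow one.

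Markers of other cell types had few regions of any kind at their ends. Narrow regions were at 3 of 20 T cell genes (Cd5, Cd28 and Cd4), at 2 of 16 neutrophil genes (S100a8, a calcium-binding alarmin, and the protease gene Prtn3), and at 1 of 20 hepatocyte genes (Trf, transferrin). Narrow regions were at 1 of 20 skeletal muscle genes (Mylpf) and at 0 of 24 neuronal and 0 of 18 B cell genes. The narrow shares of T cell and neutrophil genes were above the 6.64% of all genes, and those of the other marker lists below it. The intervals for T cell genes (5.24% to 36.04%) and neutrophil genes (3.498% to 36.02%) both include 6.64%. Cd4 shares its region with Gpr162, and the region at Prtn3 had its midpoint past the 3′ end. Of 397 Zfp zinc finger genes, 34 had a narrow region (8.56%, 6.19 to 11.7). Olfactory and vomeronasal receptors had 1 of 1463 (0.0684%), at Olfr211, and keratin genes 0 of 109. Over the 22 lists, 8 had a narrow share above 6.64%.

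**Figure D2:**
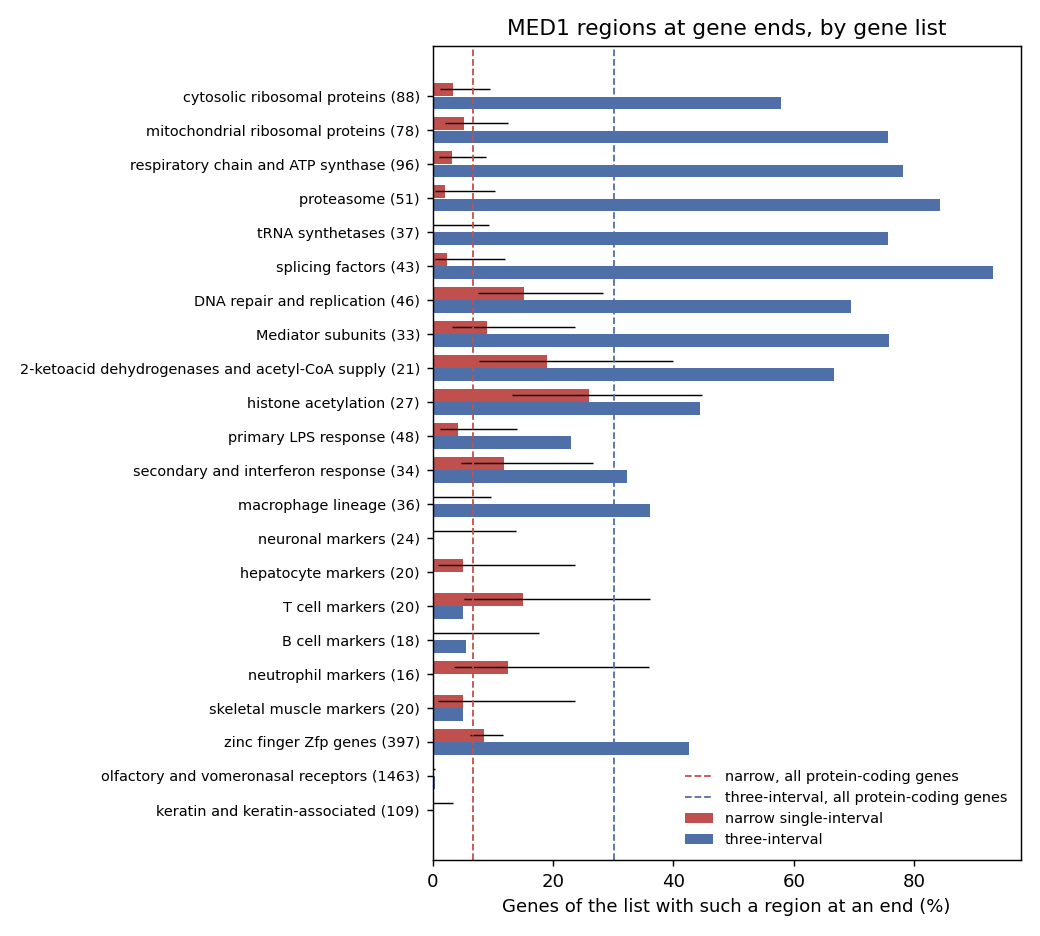
Percentage of the genes of each list with a narrow single-interval region (red, with Wilson 95% interval) or a three-interval region (blue) at an end. The dashed lines mark 6.64% and 30.2%, the shares over all protein-coding genes. Histone acetylation genes reach 25.9% for narrow regions and splicing factors 2.33%.

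Some gene families, chosen after their values were seen and so only described, carried several members. In the p200 family of interferon-inducible DNA-binding proteins, 5 of 13 genes had a narrow region and none a three-interval region. The region at Ifi211 was 2093 bp wide and centred 25 bp inside the gene, those at Ifi205 and Ifi209 were 715 and 880 bp wide and lay 565 and 469.5 bp upstream of the start, and that at Ifi202b was at the 3′ end. Ifi204, with no strand in the tables, had a region of 949 bp. Among the Smad genes, which transmit TGF-beta and BMP signals, 3 of 8 had one: Smad2 (1081 bp), Smad3 (2234 bp) and the inhibitory Smad6 (2429 bp). A three-interval region was at 2 of the 8. In the Tbc1d family of Rab GTPase activators 8 of 30 genes had a narrow region and 14 a three-interval region. In the Dennd family of Rab exchange factors 5 of 16 had a narrow region and 5 a three-interval region. Trim genes gave 9 of 68, Usp genes 8 of 55 and Slc transporters 24 of 375 (6.40%), with three-interval regions at 17, 20 and 106 genes in the same order. Of the other families looked at, Cep gave 6 of 38, Eif 7 of 55, Pol 5 of 51, Tmem 21 of 238 and Adam 1 of 33. Over all protein-coding genes the shares were 6.64% for narrow and 30.2% for three-interval regions.

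On the X chromosome, narrow regions were a larger fraction of the regions at gene ends. Narrow and three-interval regions numbered 65 and 129 there, so that narrow ones were 33.5% of both (27.2 to 40.4). On the autosomes they numbered 1268 and 5505 (18.7%, 17.8 to 19.7), with single chromosomes between 13.2% (chromosome 3) and 21.6% (chromosome 9). The number of narrow regions per 100 genes on X was 6.73, within the autosomal range of 4.10 to 7.80. The number of three-interval regions was 13.4, below the autosomal range of 21.2 to 30.8. X-linked members included Hdac6, Hdac8, Ndufb11, Psmd10, the choroideremia gene Chm and, at its 3′ end, Cybb, which encodes the catalytic subunit of the phagocyte NADPH oxidase.

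Members had near neighbours slightly more often than three-interval regions did. The distance used below to stitch regions into clusters is between 12 and 13 kb. Another MED1 region lay within that stitching distance of 54.8% of members (52.1 to 57.4), compared with 48.0% (46.7 to 49.3) of three-interval regions at gene ends and 62.1% of narrow regions away from gene ends. Over all regions the share was 61.1%, higher than in members. The order of members and three-interval regions was the same with a 500 bp window for both classes (51.0%, 47.8 to 54.1, against 45.0%, 43.5 to 46.5). With regions closer than 500 bp to another interval left out of both it was 49.4% (46.5 to 52.2) against 44.9% (43.5 to 46.2). Within 1 kb, the shares were 17.1% (15.2 to 19.2) of members and 9.58% (8.84 to 10.4) of three-interval regions. They were 15.9% both of narrow regions away from gene ends and of all regions. The median gap to the next region was 10.1 kb for members and 13.5 kb for three-interval regions. When regions were stitched into 13549 clusters, 80 members (4.85% to 7.41%) and 369 three-interval regions (5.93% to 7.23%) lay in the 677 with the largest covered length. The share of narrow regions away from gene ends in these clusters was 11.3%, and that of all regions 14.4%. The end of a long noncoding RNA gene lay within 1 kb of 9.83% of members (8.34 to 11.5), 11.3% of three-interval regions (10.5 to 12.1) and 7.61% of all regions.

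No other region lay within 100 kb of 88 members (6.60%, 5.39 to 8.06), compared with 7.26% (6.61 to 7.97) of three-interval regions at gene ends and 4.68% of all regions. The most isolated was at Il13ra2, a decoy receptor for interleukin 13 on chromosome X, 3028 kb from the next region, with its midpoint 20 bp inside the gene. Those at Peg12, the helicase gene Dhx36, Isoc1 and Chm were 1394, 1064, 763 and 682 kb from the next.

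The 139 members at a 3′ end and no known start stood in more crowded surroundings. They had another region within the stitching distance in 74.1% (66.2 to 80.7), compared with 51.3% (48.1 to 54.4) of members at starts. Three-interval regions showed the same order, with 76.9% at 3′ ends and 46.5% at starts. Of the 148 genes concerned, 68 (45.9%) also had a region of some kind at their start, compared with 77 of 196 (39.3%) at three-interval 3′ ends. Over all genes with a promoter window, 11006 of 17273 had no region at the start. The midpoint lay past the 3′ end in 70 members, and 8 had 3′ ends of genes on both strands within 1 kb. A listed start of any gene or transcript lay within 1 kb of 2 of them, and of 12 of 186 three-interval regions at 3′ ends. Regions with a known protein-coding gene start within 1 kb were already left out by selection, so only other listed starts could be counted. The listing also gave the strands used for this selection. It covers 79.9% of protein-coding genes and can miss others. The median width of the 139 members was 1278 bp, close to the 1227 bp at starts.

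A few genes with such 3′ regions are named as examples, chosen after their values were seen. At Cybb the region (chromosome X, 9434158 to 9436756) was 2599 bp wide and centred 205 bp before the 3′ end. At Mefv, which encodes pyrin, an inflammasome protein, a region of 1175 bp was centred 15 bp before the 3′ end. At Irf2, an interferon regulatory factor, a region of 317 bp had its midpoint 366 bp past the end and 0.333 kb from the next region. At Cbfb, the partner of RUNX factors, a region of 1000 bp had its midpoint 128.5 bp past the end. At the glycolytic gene Gapdh a region of 2181 bp had its midpoint 638 bp past the end and also within 1 kb of an end of Iffo1. Tfeb, a regulator of lysosomal genes, had narrow regions at both ends, 2337 bp wide at 964 bp inside the start and 2314 bp wide at 760.5 bp past the 3′ end.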

How the data were processed

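MED1 ChIP-seq of 2 untreated and 2 LPS-stimulated RAW 264.7 libraries was analysed from the interval list that the authors deposited. Bowtie, SAMtools, MACS2 2.2.6 and mm10 are named per the submitters' processing notes, and peak-calling settings, controls and pooling are not given in the labels or headers. The deposited score is 0 in every line and was not used, and no column of another sample was present. Without counts, depth and precision per library are unknown, and untreated and stimulated cells could not be compared, as had been planned.

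Intervals on chromosomes 1 to 19 and X were joined where a start equalled the previous end; of 53764 intervals, 17 lay elsewhere. Gene ends came from RefSeq GRCm38.p6 (21627 protein-coding genes), and strand and 300-base promoter windows from the RefSeq promoter table (17273 genes, 79.9%). The CpG ratio is CpG count times length over the product of C and G counts. Of 2728 gene list entries, 2725 were found. Joining, sides and word searches were checked on simulated data. Coordinates are 1-based.

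Members and lists were chosen with earlier results of these data known. Genes were named by rule: up to 4 members per list nearest to a gene end, the 5 narrowest, 5 widest and 5 most isolated members, and regions beside each limit. Those of a list's other members and those said to be chosen after their values were seen fall outside it. Some genes that the rule selects are not named here. The alternatives tried were other gene-end windows, any overlap, other width limits, stricter joining, windows wholly inside the region, and, added after the data were seen, divergent pairs left out, width classes and neighbour shares with both classes filtered alike. Computation used pandas 2.3.3 with numpy 2.4.6 and scipy 1.17.1 under Python 3.11.15, and figures were drawn with matplotlib 3.10.9.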

Additional observations from a re-analysis of the deposited data

How the results depend on the processing

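The number of narrow single-interval regions at gene ends was 1333 as reported and 751 when only widths at or below the median of single-interval regions (1346 bp) were kept. The share at a gene start (87.3%) became 90.4% with a window of 500 bp, 79.5% with 2.5 kb and 82.9% by any overlap. The share with another region within the stitching distance (between 12 and 13 kb) (54.8%) became 51.0%, 60.2% and 58.4% in the same order, and 49.4% when regions with another interval within 500 bp were left out. The share inside the largest clusters (80 of 1333) became 7.55% with 2.5 kb and 7.45% by any overlap. The median promoter GC content (62.7%) became 61.3% with 500 bp. These alternatives change which regions count, and no other cause was tested. The other 40 values of the main measures moved by no more than their intervals or, for counts, by less than 1.5 times. Of the values for single lists and words, 156 did likewise and 18 did not. With no upper limit on width, the share for the secondary and interferon list was 23.5% in place of 11.8%, and for the primary LPS list 8.33% in place of 4.17%. With widths at or below the median, no gene of the secondary and interferon list and none of the primary LPS list kept a narrow region, and the share for DNA repair and replication genes fell from 15.2% to 2.17%. The share over all genes is not given for these other width limits, and 6.64% belongs to the main setting. No paired analysis was possible because the list holds no values per library, and for the same reason no replicate could be left out. The main limits are the unknown depth and conditions, the unknown peak-calling settings, and the 242 members at genes without a strand, which could not be placed at a start or a 3′ end.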
